A study of Mus musculus with 8 samples.

Results

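The 10 genes described here encode the components and closest regulators of the mTOR kinase complexes: Mtor, Rptor, Rictor, Mlst8, Deptor, Tsc1, Tsc2, Rheb, Eif4ebp1 and Rps6kb1. They were chosen by name and found on the array through the accession of each probe. All 10 were measured, out of 18749 genes with a probe and 14137 genes that could be tested. They were compared at lactation day 1 in the No. 4 mammary glands of female C57/Bl6 mice, 4 of them wild type (WT) and 4 with Th-POK knocked out (KO), with the RNA of 1 dam on each array. Th-POK is the transcription factor encoded by Zbtb7b. The KO is a germline deletion, so every cell of the animal lacked it, and the gland was taken whole, with its epithelium, fat, stroma, vessels and blood cells. In such a bulk sample, fewer cells of a type and less RNA per cell cannot be told apart.

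mTOR is a protein kinase that works in a pair of complexes. In mTORC1 it is joined by Raptor, the product of Rptor, which recruits substrates, and in mTORC2 by Rictor. Mlst8 is found in both complexes, and Deptor binds both and inhibits them. mTORC1 is switched on at the lysosome by the small GTPase Rheb, and the complex of Tsc1 and Tsc2 switches Rheb off by speeding its hydrolysis of GTP. Active mTORC1 phosphorylates the translation repressor 4E-BP1 (Eif4ebp1) and the kinase S6K1 (Rps6kb1), and so raises protein synthesis. In the lactating mammary gland the pathway is known for its part in the synthesis of milk protein and lipid. Its activity is set largely by phosphorylation and by binding at the lysosome, which arrays do not read. The values below are RNA signals alone.

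The 8 arrays had 1 colour, so the measurement is the brightness of a probe, given here as log2 signal after quantile normalization. A difference of 1 on this scale is a 2-fold difference, and levels of different probes cannot be set against each other. Between 67.1% and 75.6% of the spots of an array were well above background, and no spot was saturated. The 4 WT arrays lay on 1 slide and the 4 KO arrays on another, so slide and genotype cannot be told apart for any result given here. Zbtb7b had a log2 signal of 9.90, 10.42, 10.13 and 10.23 on the WT arrays. It was not well above background on any KO array, at least 81.5-fold lower (limma, adjusted p = 5.71e-09). The 7 milk protein genes were all measured, with summed signals of 1440000 to 1530000 brightness units in WT and 1470000 to 1620000 in KO glands. Quantile normalization gives every array the same set of top values, so sums of probes this bright were held close in advance. They do not show whether milk protein RNA differed. Of the 7, Lalba had the largest difference, -0.45 (limma, adjusted p = 0.197). Of markers of cell types, where 7.53% of all genes were called higher and 8.96% lower in KO, 4 of 8 luminal epithelial genes were higher in KO (summed signal 241000 to 295000 in WT and 313000 to 349000 in KO), as were 2 of 8 adipocyte genes (295000 to 410000 and 415000 to 581000) and 3 of 7 neutrophil genes, Ngp, Camp and Ltf. In WT, Ngp read 1.93, 3.78, 1.94 and 2.21 and Camp 1.76, 1.51, 2.06 and 2.49 in log2 signal, near the floor. Both could enter the test only through their KO arrays, where they were high, so their calls are no independent support. Ltf, which mammary epithelium also makes, carried most of the neutrophil sum, with 65700 to 96900 units in WT and 161000 to 252000 in KO, and the other 6 genes summed to 1640 to 7760 and 7910 to 19200. Of the 6 T cell genes, 2 were lower in KO (544 to 1490 and 583 to 777). In KO, 1 of 6 fibroblast genes was higher (174000 to 220000 and 215000 to 319000), 1 of 4 B cell genes was higher (Cd79b, by 1.05 on the log2 scale) and 1 of 4 skeletal muscle genes was lower (1820 to 2200 and 1280 to 5270). No basal, macrophage, endothelial or milk protein gene of these lists was called. The part of these shifts in the values of the mTOR genes was not tested.

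None of the 10 mTOR genes passed the test between genotypes, limma with Benjamini-Hochberg adjustment over all genes and a threshold of 0.05. Over all genes tested, 16.5% passed. At an unadjusted p under 0.05 there were 4 of the 10, namely Tsc1 and Eif4ebp1 on the higher side in KO and Rheb and Rps6kb1 on the lower side, where 36.3% of all genes reached that level. The signals of the genotypes did not overlap for 2 of the 10, Tsc1 and Rps6kb1, against 24.1% of all genes. The median size of the difference was 0.29 on the log2 scale for the 10 genes and 0.27 for all genes. The median signed difference was -0.05 for the 10 genes and -0.02 for all genes, with 7 of the 10 lower and 3 higher in KO, Rptor with its failed spot included. Of all genes, 52.4% were lower in KO. The count at an unadjusted p under 0.05 depended on single arrays. It was 1 without WT array 2, KO array 1 or KO array 3, where 5.34%, 5.3% and 3.64% of all genes passed the adjusted test. It was 2 without WT array 3, WT array 4 or KO array 2, where 6.93%, 12.7% and 6.76% passed. It stayed at 4 without WT array 1 (21.8%) or KO array 4 (16.1%). The share of all genes at the unadjusted level was not computed in these fits.

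**Figure D1:**
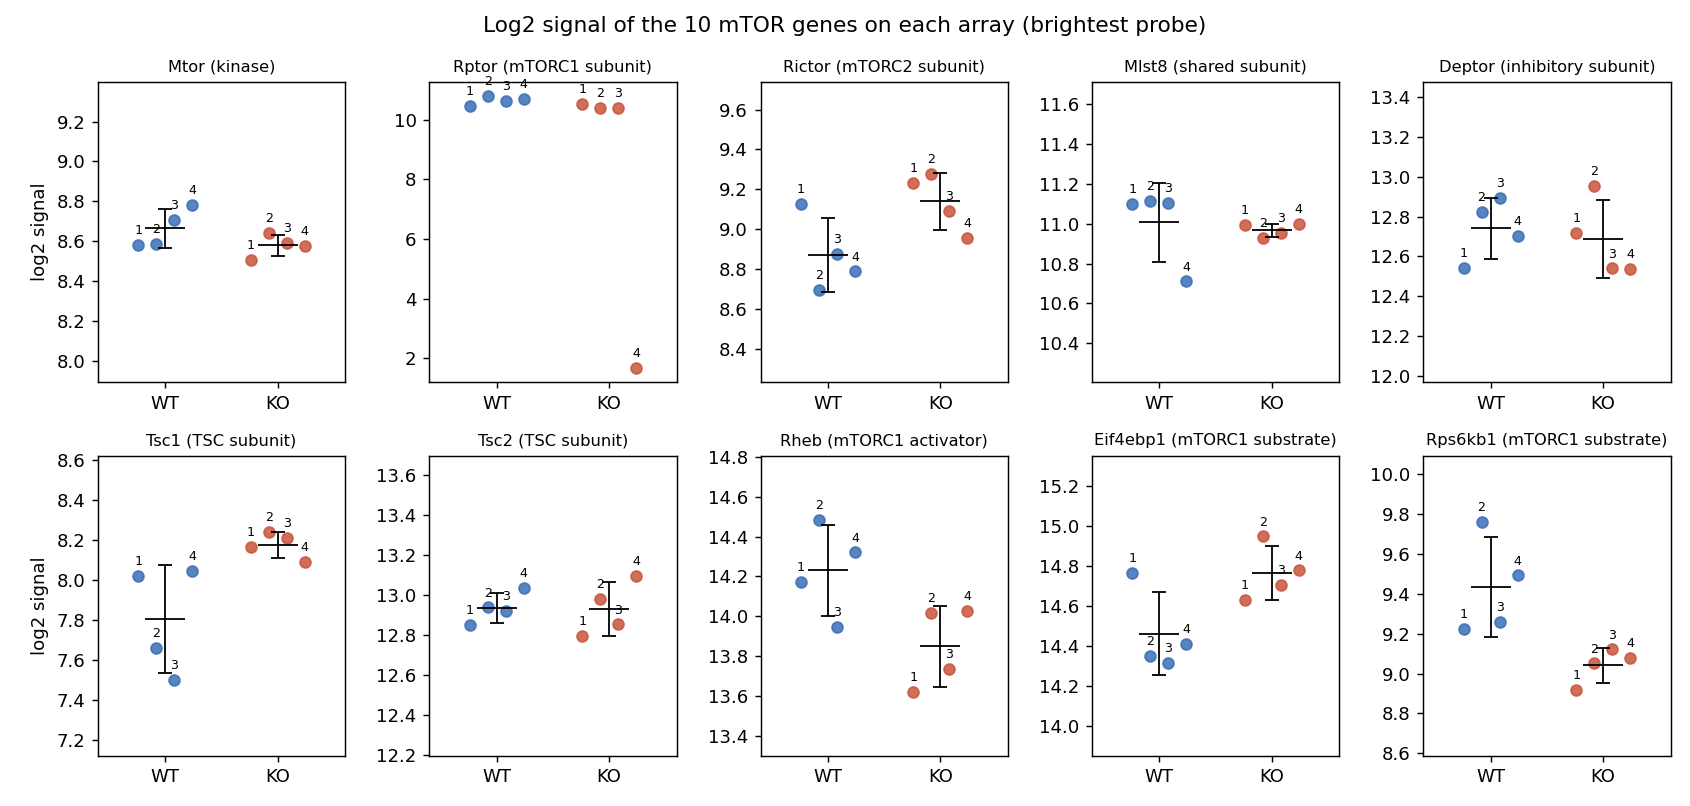
Log2 signal of each mTOR gene on the 8 arrays, 1 panel per gene with its own vertical axis. Points are arrays, and bars are the mean with SD of 4 arrays. WT and KO points separate for Tsc1 and Rps6kb1, and 1 KO point of Rptor lies at 1.67, far below the others; Rptor has no bar for that reason.

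Mtor, the kinase itself, had nearly the same signal in every gland. Its log2 signal was 8.58, 8.59, 8.71 and 8.78 on the WT arrays and 8.51, 8.64, 8.59 and 8.58 on the KO arrays. All 8 values lay within the range 8.51 to 8.78, and the genotypes overlapped. The means were 8.67 ± 0.10 and 8.58 ± 0.05 (SD, n = 4 each), a difference of -0.09 with a 95% interval of -0.30 to 0.12 (adjusted p = 0.534). The 3 genes among all those tested whose signal followed that of Mtor most closely over the 8 arrays were Unkl (Pearson r = 0.973), Gckr (r = 0.951) and Abhd5 (r = 0.946). These 3 were picked as the highest over all genes tested and rest on only 8 arrays. None of the 3 passed the test between genotypes (adjusted p = 0.558, 0.279 and 0.165).

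Mlst8, the subunit of both complexes, likewise stayed close. The WT arrays read 11.10, 11.12, 11.10 and 10.71 and the KO arrays 10.99, 10.93, 10.95 and 11.00 in log2 signal. WT array 4 stood apart below the other WT arrays, and the KO values lay between it and them. The difference was -0.04, with a 95% interval of -0.30 to 0.22 (adjusted p = 0.832). Deptor, the inhibitory subunit, read 12.54, 12.82, 12.89 and 12.70 in WT and 12.72, 12.95, 12.54 and 12.54 in KO. Its highest value and its lowest value of the 8 were both in KO glands. The difference was -0.05 (95% interval -0.35 to 0.25, adjusted p = 0.797).

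Rptor gave the largest difference of the 10, and 1 failed spot set it. On its brighter probe, A_52_P229320, the log2 signal was 10.45, 10.80, 10.64 and 10.70 in WT and 10.53, 10.39, 10.40 and 1.67 in KO. The last value, on KO array 4, was the only one of the 8 not well above background. With that spot included the difference was -2.40 with an SE of 1.84 (adjusted p = 0.376). With the spot treated as missing, the means were 10.65 ± 0.15 (SD, n = 4) in WT and 10.44 ± 0.08 (SD, n = 3) in KO. The difference was then -0.21, with a 95% interval of -0.49 to 0.07 (adjusted p = 0.246). The dimmer Rptor probe, A_51_P413031, had no such spot: it read 5.28, 5.82, 5.62 and 5.73 in WT and 5.41, 4.98, 5.01 and 5.44 in KO. It gave a difference of -0.40 (adjusted p = 0.122 over all probes), with overlap of the genotypes.

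The scanner values show what kind of spot this was. The median brightness of the A_52_P229320 spot was 35 units on KO array 4, under its local background of 44 units. On the other 7 arrays the brightness was 1360 to 1711 units over a background of 34 to 45 units. The software had not marked the spot as an outlier. A search of all probes for the same pattern, well above background on 7 arrays and more than 3 log2 units lower on the remaining one, found 36 probes. KO array 4 held 25 of them, KO array 2 held 6, and no other array held more than 2. Of the 25 on KO array 4, 21 lay within 5 columns, the limit set, of a straight line fitted to these same 25 spots. The 21 ran across rows 441 to 490 and columns 28 to 81 of the grid, the farthest 2.41 columns from the line. The Rptor spot, at row 453 and column 44, was 0.941 columns from that line. No other probe of the 10 genes had such a spot.

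**Figure D2:**
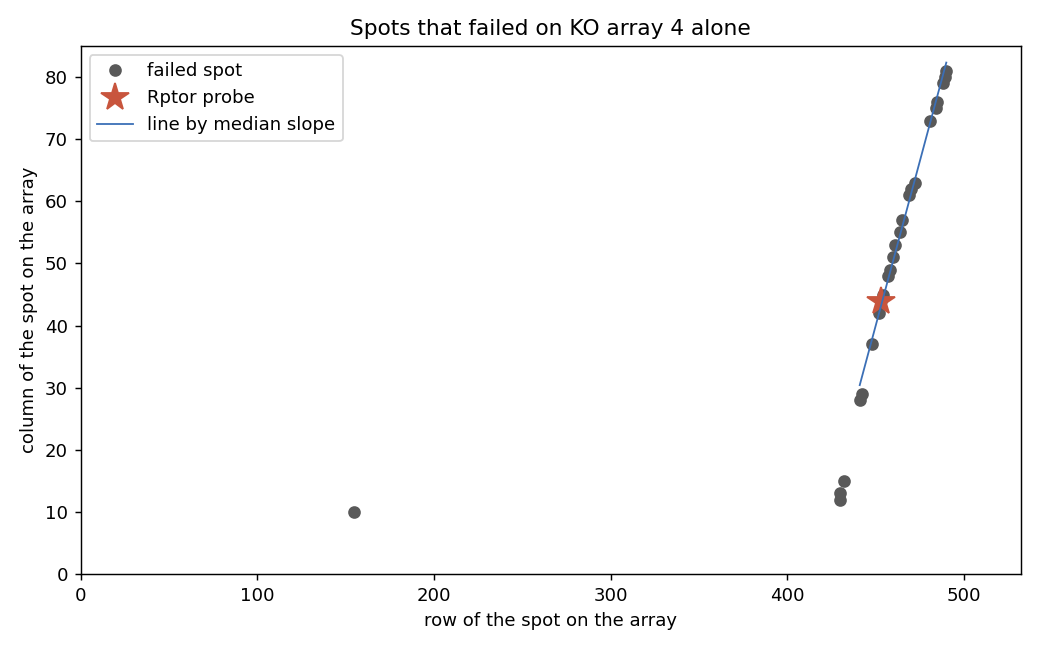
Position on the array, by row and column of the printed grid, of the 25 spots that fell more than 3 log2 units on KO array 4 alone. Most of the spots, 21 of 25, lie within 5 columns of 1 straight line fitted to the 25, and the spot of the Rptor probe is among them.

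Rictor, which defines mTORC2, had 4 probes, all with a higher mean in KO. The brightest, A_52_P145412, read 9.13, 8.70, 8.88 and 8.79 in WT and 9.23, 9.28, 9.09 and 8.96 in KO. The highest WT array lay above 2 of the KO arrays. Its difference was 0.27, with a 95% interval of -0.02 to 0.56 (adjusted p = 0.164). A dimmer probe, A_52_P550602, read 5.02, 4.76, 4.93 and 4.67 in WT and 5.51, 5.48, 5.44 and 5.36 in KO, with no overlap. This probe rose in KO by 0.60 ± 0.11 (SE, n = 4 per genotype; adjusted p = 0.0165 over all probes). The other 2 probes gave 0.42 (adjusted p = 0.0955) and 0.28 (adjusted p = 0.295). The probes thus shared a direction and differed in whether they passed the test.

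Tsc1, which stabilises Tsc2 and with it forms the brake on Rheb, was on the higher side in KO on all 3 of its probes. On the brightest, A_52_P19245, the log2 signal was 8.02, 7.66, 7.50 and 8.04 in WT and 8.16, 8.24, 8.21 and 8.09 in KO. Every KO array lay above every WT array, though WT array 4 and KO array 4 nearly met. The means were 7.80 ± 0.27 and 8.18 ± 0.07 (SD, n = 4 each), and the difference of 0.37 (95% interval 0.05 to 0.69) had an adjusted p of 0.0982. The probe A_51_P155018 read 5.99, 5.82, 5.93 and 6.04 in WT and 6.47, 6.37, 6.34 and 6.38 in KO. It rose in KO by 0.44 ± 0.10 (SE, n = 4 per genotype; adjusted p = 0.0240 over all probes). The dimmest probe, A_52_P267779, spread more widely, at 4.00, 4.24, 4.56 and 4.55 in WT and 5.31, 6.06, 4.49 and 4.93 in KO. Its difference of 0.86 had an adjusted p of 0.0890. When the probes of each gene were averaged in place of taking the brightest, Tsc1 passed the test over genes, with a difference of 0.56 (adjusted p = 0.0320). That average gave the dimmest probe, with its 0.86, the same weight as each of the others.

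Tsc2, the partner that acts on the GTP of Rheb, did not follow Tsc1. Its log2 signal was 12.85, 12.94, 12.92 and 13.04 in WT and 12.79, 12.98, 12.85 and 13.10 in KO. The lowest and the highest of the 8 values were both in KO glands. The difference was -0.00 with a 95% interval of -0.24 to 0.23 (adjusted p = 0.980), and its sign turned under other settings.

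Rheb, the GTPase that activates mTORC1, read 14.17, 14.48, 13.95 and 14.32 in WT and 13.62, 14.02, 13.74 and 14.03 in KO. KO arrays 2 and 4 lay above the lowest WT array, so the genotypes overlapped. The means were 14.23 ± 0.23 and 13.85 ± 0.20 (SD, n = 4 each). The difference of -0.38 had a 95% interval of -0.72 to -0.04 before adjustment and an adjusted p of 0.109.

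The 2 substrates of mTORC1 differed between genotypes in opposite directions, and neither passed the test. Rps6kb1, the kinase that phosphorylates ribosomal protein S6, read 9.22, 9.76, 9.26 and 9.49 in WT and 8.92, 9.05, 9.12 and 9.08 in KO on its brightest probe, A_51_P175205. Every KO array lay below every WT array. The means were 9.43 ± 0.25 and 9.04 ± 0.09 (SD, n = 4 each), and the difference of -0.39 (95% interval -0.70 to -0.08) had an adjusted p of 0.0789, the smallest of the 10 genes. The 2 dimmer probes that could be tested gave -0.34 (A_52_P166482, adjusted p = 0.148) and -0.31 (A_52_P170486, adjusted p = 0.173). The fourth probe, A_52_P372321, was well above background on 0 WT and 2 KO arrays and was not tested.

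Eif4ebp1, whose product holds back the cap-binding protein eIF4E until mTORC1 phosphorylates it, read 14.77, 14.35, 14.32 and 14.41 in WT and 14.63, 14.95, 14.71 and 14.78 in KO. WT array 1 stood apart from the other WT arrays and lay above KO arrays 1 and 3. The means were 14.46 ± 0.21 and 14.77 ± 0.14 (SD, n = 4 each), a difference of 0.31 (95% interval 0.01 to 0.60, adjusted p = 0.131). Without WT array 1 the difference was 0.42 and passed the test (adjusted p = 0.0388), and with scaling to the 75th percentile in place of quantile normalization it was 0.15 (adjusted p = 0.309). The dimmer probe, A_52_P283674, read 6.67, 6.24, 6.24 and 6.50 in WT and 6.70, 7.12, 6.81 and 6.88 in KO. Its genotypes did not overlap, and its difference was 0.46 (adjusted p = 0.0588 over all probes).

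**Figure D3:**
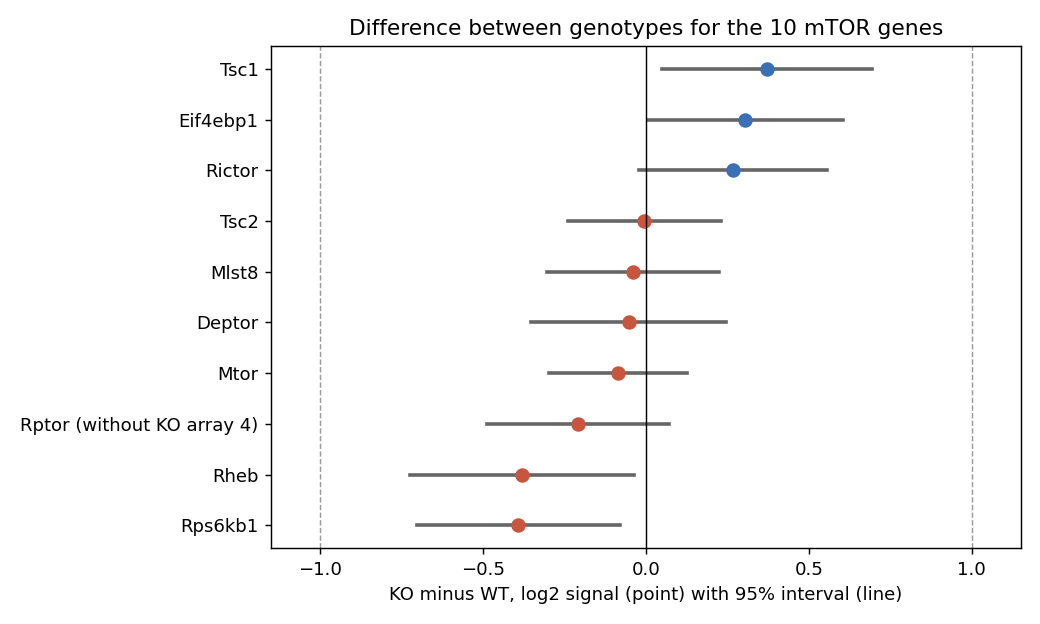
Difference in log2 signal, KO minus WT, for each of the 10 genes, as points with 95% intervals; Rptor is shown with KO array 4 treated as missing. The intervals of Tsc1, Rheb, Eif4ebp1 and Rps6kb1 lie to 1 side of 0 before adjustment, and none reaches a 2-fold difference.

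**Figure D4:**
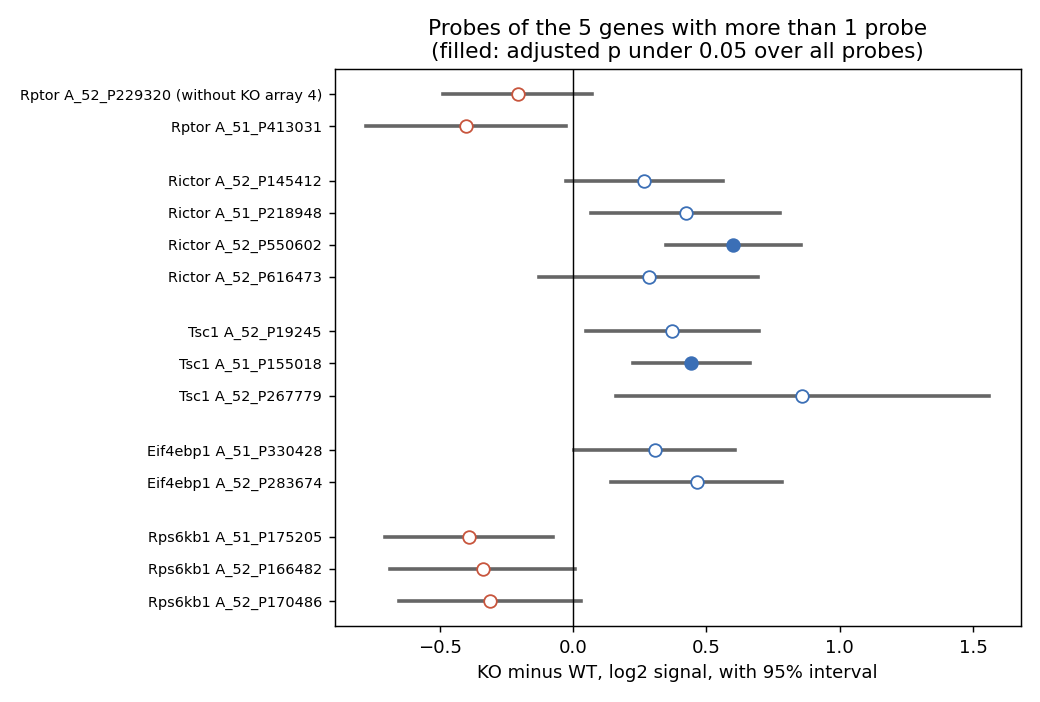
Difference in log2 signal, KO minus WT, with its 95% interval for each tested probe of the 5 genes that had more than 1. Probes of a gene lie on the same side of 0, and 1 Rictor and 1 Tsc1 probe (filled) passed the test over all probes.

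Over the probes, 2 of the 19 tested for the 10 genes passed, 1 of Rictor and 1 of Tsc1, both higher in KO, against 14.5% of all probes. Several probes of a gene read the same RNA and are not independent. For the 9 genes other than Rptor, the 95% intervals ran from -0.72 at the lowest to 0.69 at the highest, so each excluded a 2-fold difference in either direction on its brightest probe. Among all genes tested, 7.08% differed by 2-fold or more. The SD between glands of 1 genotype was 0.03 to 0.27 for these 9 genes, and it was smaller in KO than in WT for 7 of the 9, against 58.6% of all genes.

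Within a genotype the 9 genes did not move as 1 block from gland to gland. The deviations from the genotype mean gave 36 pairs of genes with a median Pearson r of 0.0491 over the 8 arrays, of which 21 were above 0. The highest were Rheb with Rps6kb1 (r = 0.733), Tsc2 with Rheb (r = 0.684) and Rictor with Eif4ebp1 (r = 0.651). The points share arrays and their normalization, and these r are given as a description.

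Around these 10 genes, 74 further genes of the pathway were listed by role, and 68 could be tested. Of the 68, 8 fell in KO and 4 rose, 17.6% in all against 16.5% of all genes (8.96% lower and 7.53% higher), and 56 did not pass. Their median difference was -0.06. With single arrays left out, 3.64% to 21.8% of all genes were called, fewer than with all arrays in each fit except that without WT array 1. The differences of the 12 genes stayed between 0.798 and 1.30 times those given below. All 12 calls were lost without KO array 3, where 3.64% of all genes were called. All but that of Sgk1 were lost without WT array 2 (5.34% of all genes) and without KO array 1 (5.3%). Of the 12, Sgk1, Akt1 and Sesn3 were called without WT array 3 (6.93% of all genes), and these with Lpin1 without KO array 2 (6.76%). Without WT array 4, 7 of the 12 were lost (12.7% of all genes called), without KO array 4, 4 were (16.1%), and without WT array 1, only Lpin1 was (21.8%). With the position of the array on its slide as a block, chosen after seeing the data, none of the 12 was called, where 0.969% of all genes were. With the replicate number as a block, 10 genes fell and 7 rose, where 19.5% of all genes were called.

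Of the other subunits and assembly factors, none of the 5 tested passed, where 16.5% of all genes did, and their median difference was -0.24.

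In the lysosomal arm that reports amino acids to mTORC1, 3 of 28 genes fell and 2 rose (17.9%, against 16.5% of all genes), with a median of 0.08. Rraga encodes a Rag GTPase that brings mTORC1 to the lysosome. Its log2 signal fell from 11.94 ± 0.11 in WT to 11.53 ± 0.15 in KO (SD, n = 4 each; difference -0.41, adjusted p = 0.0413). Nprl2, a subunit of the GATOR1 complex that inhibits the Rag GTPases, fell from 9.84 ± 0.07 to 9.48 ± 0.07 (difference -0.36, adjusted p = 0.0341). Sec13, shared by the GATOR2 complex, the nuclear pore and the COPII coat, fell from 11.42 ± 0.32 to 10.64 ± 0.35 (difference -0.77, adjusted p = 0.0428). Its KO arrays read 10.50, 10.44, 10.46 and 11.16, and the last lay above WT array 1, at 11.09. Fnip2, a partner of folliculin at the lysosome, rose from 8.43 ± 0.13 to 8.90 ± 0.15 (difference 0.48, adjusted p = 0.0297). Sesn3, a stress-induced sestrin that inhibits mTORC1 through GATOR2, read 10.04, 9.24, 10.12 and 10.01 in WT and 11.31, 10.43, 10.94 and 10.88 in KO. All KO arrays lay above all WT arrays, and the difference was 1.04 ± 0.24 (SE; adjusted p = 0.0279).

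Among the growth factor and energy inputs, 2 of 16 genes fell and 1 rose (18.8%, against 16.5% of all genes), with a median of -0.00. Akt1 encodes the kinase that phosphorylates Tsc2 and so relieves Rheb, and is itself a substrate of mTORC2. It read 14.66, 15.22, 14.82 and 15.04 in WT and 14.21, 14.24, 13.95 and 14.41 in KO. The genotypes did not overlap, and it fell by 0.73 ± 0.15 (SE; adjusted p = 0.0206). Rps6ka1, the kinase RSK1 of the ERK pathway, which also phosphorylates Tsc2, fell from 11.83 ± 0.38 to 11.09 ± 0.26 (SD, n = 4 each; difference -0.74, adjusted p = 0.0452). Prkaa1, a catalytic subunit of the energy sensor AMPK, which opposes mTORC1, rose from 9.50 ± 0.14 to 9.90 ± 0.12 (difference 0.40, adjusted p = 0.0403). Prkaa2, the other catalytic subunit, went the other way, from 12.55 ± 0.34 to 11.61 ± 0.57, and did not pass (difference -0.93, limma, adjusted p = 0.0586). With the replicate number as a block Prkaa2 was called lower (limma, adjusted p = 0.0231), where 19.5% of all genes were called.

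Among the other substrates and effectors, 3 of 19 genes fell and 1 rose (21.1%, against 16.5% of all genes), with a median of -0.18. Sgk1, a kinase activated by mTORC2, had the largest difference of the 68 genes. It read 13.31, 13.92, 13.06 and 13.83 in WT and 12.50, 12.51, 11.71 and 11.73 in KO. All KO arrays lay below all WT arrays, and it fell by 1.42 ± 0.27 (SE; adjusted p = 0.0171). Without KO array 3 its adjusted p was 0.0530. Lpin1, a phosphatidate phosphatase whose protein mTORC1 phosphorylates, read 13.31, 13.93, 13.24 and 13.46 in WT and 12.23, 13.35, 11.87 and 11.77 in KO. KO array 2 lay among the WT values, and the difference was -1.18 (adjusted p = 0.0483). Eif4e, the cap-binding protein that 4E-BP1 holds back, fell from 11.17 ± 0.22 to 10.66 ± 0.14 (SD, n = 4 each; difference -0.51, adjusted p = 0.0381). Ulk1, the kinase that starts autophagy and is inhibited by mTORC1, read 13.32, 12.42, 12.69 and 13.11 in WT and 13.96, 13.53, 13.93 and 13.45 in KO. It rose by 0.83 ± 0.22 (SE, adjusted p = 0.0372), with all KO arrays above all WT arrays. Where the called genes had other tested probes, these shared the direction. They passed limma over all probes for Eif4e (adjusted p = 0.0264), Rps6ka1 (0.0374) and Sec13 (0.0464). They did not for Ulk1 (0.51, adjusted p = 0.0847), Prkaa1 (0.38, 0.154), Akt1 (-0.80, 0.0642) and Lpin1 (0.0751 and 0.0884). With the mean of probes, Ulk1, Prkaa1 and Lpin1 lost their calls.

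**Figure D5:**
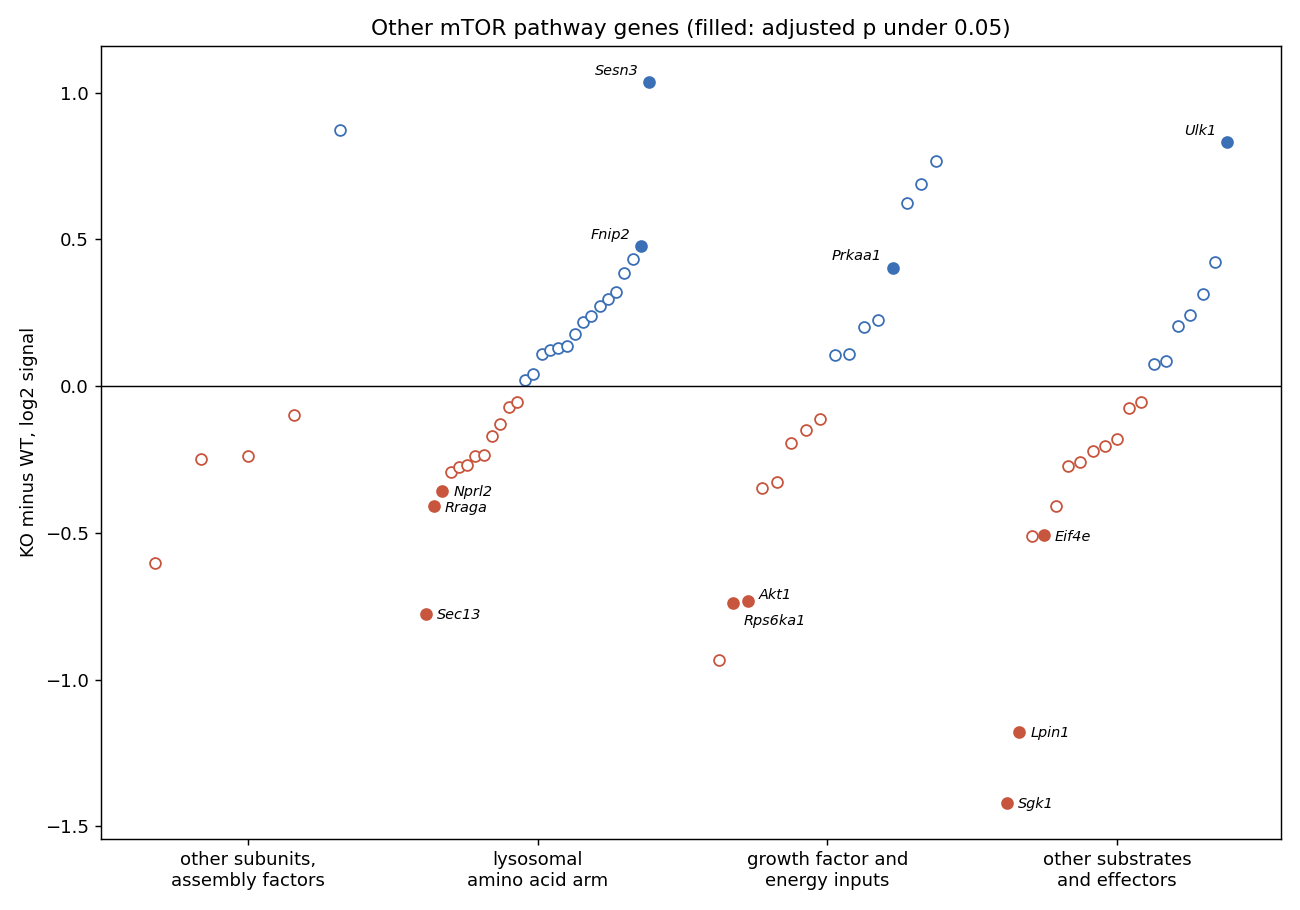
Difference in log2 signal, KO minus WT, for the 68 other pathway genes tested, in 4 role groups and ordered by size within each. Filled points are the 12 genes with an adjusted p under 0.05, of which 8 lie below 0 and 4 above.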

How the data were processed

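For each array the authors deposited the scanner output of Agilent Feature Extraction 10.7, whose processed intensity had its background subtracted but was not yet scaled across arrays. A table of log2 values that the authors quantile normalized in GeneSpring was deposited as well and is an alternative here. Each of its columns followed the log2 intensity of the same array. The scanner's flags for outliers, saturation and background were used as deposited. The arrays were of the 4x44K mouse format.

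Control spots and the 64 to 100 outlier spots per array were dropped, the processed intensities were log2 transformed and quantile normalized with limma 3.58.1 (R 4.3.3), and replicate spots of a probe were averaged. Probes were kept if either genotype had them well above background on each of its 4 arrays. Genes were named by matching accessions to the RefSeq table of GRCm38.p6, in which 27479 of 41174 probes matched; the array header names mm9, so no coordinates are given. The brightest probe stood for a gene, except where probes are named, and genotypes were compared with lmFit and eBayes with Benjamini-Hochberg adjustment over 14137 genes, or 27654 probes. The pipeline was tested on simulated data. The p-values measure the spread between dams, and the number of arrays limits the precision. The members and lists were chosen with earlier results of these data known. Named genes were the 10 genes with all their probes, Zbtb7b, up to 5 called genes per direction in each role group, and the 3 genes most correlated with Mtor. Genes named with the processing alternatives and single arrays that stand apart, and Prkaa2 beside Prkaa1, fall outside that rule. Of the 74 further genes, Stk11 and Pdcd4 had no matched probe here and Akt1s1, Tti2, Rragb and Castor2 were too dim; 1 gene tested is counted but not reported here by name.

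The replicate numbers 1 to 4 come from the labels, and the methods speak of independent replicate sets without saying what a set shares. With genotype means removed, same-numbered WT and KO arrays had r = 0.219, 0.165, 0.304 and 0.283, all over 0.1, so the numbers were treated as pairing in an alternative fit. WT arrays 3 and 4 correlated most with the KO array of their own number. WT array 1 correlated most with KO array 3, and WT array 2 with KO array 4. Other alternatives were scaling to the 75th percentile, normexp background correction with an offset of 50 (on the median spot signal), other probe filters, the mean of probes, failed spots set missing, the methods' t-test, the slide position as a block and leaving out each array.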

Additional observations from a re-analysis of the deposited data

Results flagged for a closer look

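A sample far from the other 3 of its genotype was found in 17 of 176 groups of 4 arrays, over the 88 probes and genes of the pathway described; chance gives about 1 in 20. Among the 10 mTOR genes these were Rptor on KO array 4 (1.67 against 10.39 to 10.53, the failed spot described above), Mlst8 on WT array 4 (10.71 against 11.10 to 11.12) and the Rps6kb1 probe A_52_P166482 on KO array 1 (8.53 against 8.89 to 8.97).

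On WT array 1, Prr5l stood high (11.40 against 9.67 to 9.87), as did Seh1l (10.98 against 10.68 to 10.71), and Rraga stood low (11.77 against 11.97 to 12.01). On WT array 2, Sesn3 was low (9.24 against 10.01 to 10.12), as was Ndrg1 (15.00 against 15.69 to 15.76), and Tfeb was high (6.48 against 6.26 to 6.30). On WT array 4, Telo2 was low (9.80 against 10.12 to 10.16).

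On KO array 4, Sec13 was high (11.16 against 10.44 to 10.50), as were Prkaa2 (12.47 against 11.24 to 11.39), Gsk3b (8.71 against 8.46 to 8.50) and Tfeb (7.33 against 6.18 to 6.37). On KO array 2, Tbc1d7 was low (8.18 against 8.33 to 8.36), as was Prkag1 (10.90 against 11.05 to 11.08). On KO array 1, Pdpk1 was low (10.24 against 10.52 to 10.56).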

How the results depend on the processing

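No member was called lower in KO under any setting run, and 1 was called higher under 2 of them: Tsc1 with the mean of probes (0.56), and Eif4ebp1 without WT array 1 (0.42; its range over single arrays left out was 0.24 to 0.42, and it was 0.15 with scaling to the 75th percentile). Tsc2 changed sign in the authors' table (0.0031) and ranged from -0.0609 to 0.0410 with single arrays left out, being above 0 without WT array 4, KO array 1 or KO array 3. The replicate block changed no call of a member, and paired with failed spots set missing it gave the same counts of other pathway genes as alone.

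Of the other pathway genes, 8 fell and 4 rose, where 16.5% of all genes were called. Other settings gave, as fell and rose with the share of all genes called, 3 and 2 with no filter on dim probes (9.44%), 4 and 2 with the methods' t-test (9.83%), 0 and 0 with the slide position block (0.969%), 8 and 2 with the mean of probes (16.1%), and 10 and 7 with the replicate block (19.5%). Leaving out single arrays gave 0 to 10 that fell and 0 to 8 that rose, with 3.64% to 21.8% of all genes called. Over all genes, 2331 were called, against 1389 with the t-test, 1766 with no filter, 137 with the slide position block and 518 to 3079 with single arrays left out. The cause was not tested.

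The uncalled pathway genes reported by name here changed sign as follows. With scaling to the 75th percentile the differences were Lamtor4 -0.0276, Castor1 -0.0278, Rps6 -0.0804 and Eif4ebp2 -0.0369, and with the mean of probes Wdr59 0.0129 and Seh1l -0.0415. Leaving out single arrays gave Rragd from -0.21 to 0.82 (turned without WT array 2 and WT array 4), Lamtor2 from -0.51 to 0.0726 (turned without WT array 4), Castor1 from -0.0692 to 0.12 (turned without KO array 2), Wdr59 from -0.16 to 0.0236 (turned without WT array 1), Ddit4 from -0.78 to 0.0132 (turned without KO array 4), Eif4ebp2 from -0.0206 to 0.20 (turned without WT array 2), Tfeb from -0.0569 to 0.32 (turned without KO array 4) and Larp1 from -0.12 to 0.000583 (turned without WT array 1).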
